A study of Homo sapiens with 12 samples.

Results

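Expression of metalloproteinases and their inhibitors was examined in CD44 WT and CD44 KO cells of the triple negative breast cancer cell lines Hs578T and MDA-MB-231. The set holds 46 genes taken by symbol from a table of 58381 genes, and each of the 46 was found once. Of these, 40 encode proteases or close relatives without proven protease activity, 5 encode inhibitors (TIMP1 to TIMP4 and RECK), and 1, BSG, encodes basigin, a membrane glycoprotein known to induce matrix metalloproteinases in neighboring cells. Both lines carry a doxycycline-inducible Cas9 introduced by lentivirus. CD44 KO cells received guides to exons 1 and 5 of CD44 and were sorted as CD29+ and CD44-. CD44 WT cells received transfection reagent alone and were sorted as CD29+ and CD44+. Both groups thus shared the Cas9 vector, selection with puromycin and a sort, but only CD44 KO cells received guides. Each CD44 KO sample is a sorted population and not a clone. Cells were kept in low serum before RNA was taken, and 3 libraries were made for each of the 4 groups (12 in all). Separate cultures behind the 3 libraries of a group are not stated in the sources used here, so that p-values measure the spread between these libraries, which may be technical.

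Matrix metalloproteinases (MMPs) are zinc-dependent enzymes that cut collagens and other matrix proteins outside the cell, either secreted or, in the membrane-type MMPs, anchored to the cell surface. ADAM proteases sit in the membrane and release the outer parts of other membrane proteins, and ADAMTS proteases are secreted and act on proteoglycans, procollagens and microfibrils. TIMPs bind the active site of these enzymes, and RECK is a membrane-anchored inhibitor. CD44, the hyaluronan receptor, is itself a substrate, with ADAM10 and MMP14 among the enzymes known to shed its outer part before gamma-secretase cuts the remainder in the membrane.

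The targeted gene and the sort antigens were read before the members. CD44 lay between 494 and 527 CPM (counts relative to library size, scaled with edgeR's TMM factors) in Hs578T CD44 WT and between 24.9 and 28.6 CPM in Hs578T CD44 KO. In MDA-MB-231 it lay between 359.6 and 363 CPM in CD44 WT and between 30.0 and 40.3 CPM in CD44 KO. ITGB1, which encodes CD29, stayed above 409 CPM in every library. Total counts ran from 10257586 to 19725543 per library. PGR, the progesterone receptor gene, had 0 counts in all libraries, and ESR1, the estrogen receptor gene, reached at most 1.15 CPM. ERBB2 was counted at 57.4 to 101 CPM. The mesenchymal marker VIM was at 3730.3 CPM or more in every library, and the epithelial cadherin CDH1 stayed under 1 CPM. Other markers did not follow this split. The epithelial keratins KRT8 and KRT18 were at 269.6 CPM or more in every library, KRT19 was at 192 to 303 CPM in MDA-MB-231, and the mesenchymal CDH2 and SPARC stayed at or under 1.78 CPM there. The leukocyte marker PTPRC lay between 0.254 and 0.576 CPM in Hs578T CD44 WT and between 3.21 and 4.81 CPM in Hs578T CD44 KO, where CD14, CD68, CD3E and ITGAM each stayed under 0.4 CPM. In MDA-MB-231 PTPRC reached at most 0.445 CPM in CD44 WT and 0.0988 CPM in CD44 KO. The 4 endothelial markers summed to 11.9 to 14.3 CPM in Hs578T CD44 WT and 16.5 to 16.96 CPM in CD44 KO, and to 6.17 to 9.71 CPM and 14.1 to 15.6 CPM in MDA-MB-231. Of these, KDR alone passed the test described below, in both lines. Its mean was 0.0737 CPM in Hs578T CD44 WT and 1.44 CPM in CD44 KO, and 5.97 and 11.9 CPM in MDA-MB-231. PECAM1 and CDH5 passed in neither line, and VWF was not tested. In the same test VIM passed as higher in CD44 KO of Hs578T (adjusted p = 0.00386) and of MDA-MB-231 (adjusted p = 0.00253). In Hs578T alone, PTPRC (adjusted p = 3.19e-05) and the epithelial ESRP1 (adjusted p = 0.00492) passed as higher in CD44 KO. The epithelial CLDN4 passed as lower there (adjusted p = 5.67e-04). The part of all these markers in the results on the members was not tested. In these bulk libraries, fewer cells of a type and less RNA per cell cannot be told apart.

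A gene was tested when it exceeded 1 CPM in at least 2 of the 12 libraries and had an exonic length of at least 300 nt. This left 15836 genes and 36 members, 30 proteases, all 5 inhibitors and BSG. The other 10 members were MMP7, MMP9, MMP10, MMP11, MMP13, MMP24, MMP25, MMP28, ADAM33 and ADAMTS14. None of these 10 exceeded 0.988 CPM in any library, and MMP11 and MMP28 had 0 counts throughout, which allows up to 3 counts or 0.159 to 0.295 CPM in a library. The gelatinase MMP9, the matrilysin MMP7 and the collagenase MMP13 were therefore near or below the limit of detection in both lines. Counting expression as more than 1 CPM in at least 2 libraries of a line, 28 members were expressed in Hs578T and 28 in MDA-MB-231, with 20 in both. The 8 members expressed only in Hs578T by this count were MMP2, MMP17, ADAM12, ADAMTS2, ADAMTS4, ADAMTS5, ADAMTS10 and ADAMTS13. Of these, ADAMTS5 exceeded 1 CPM in CD44 KO libraries only. The 8 expressed only in MDA-MB-231 were MMP1, MMP3, MMP16, ADAM8, ADAM23, ADAMTS3, ADAMTSL1 and TIMP4.

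Levels of different genes were compared per kilobase of exon (RPKM, from the TMM-scaled CPM). In Hs578T CD44 WT the highest member was BSG at 157 ± 7.30 RPKM (mean ± SD, n = 3). It was followed by TIMP2 at 62.7 ± 7.54 RPKM, MMP14 at 54.0 ± 2.63 RPKM and TIMP1 at 50.2 ± 4.31 RPKM, whose values lay close to one another. ADAM9, a widely expressed membrane protease, came next at 38.9 ± 3.01 RPKM. ADAM10 stood at 10.6 ± 0.531 RPKM, so that MMP14 had the higher level of the 2 CD44 sheddases. The size of this gap depends on the annotated exonic length, 16168 nt for ADAM10 and 4464 nt for MMP14. In CPM, MMP14 stood at 241 ± 11.7 and ADAM10 at 172 ± 8.58.

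In MDA-MB-231 CD44 WT the order was different, and the interstitial collagenase MMP1 led with 716 ± 5.81 RPKM. MMP1 alone made up 52.0% of the summed RPKM of the members. BSG followed at 165 ± 15.8 RPKM, then TIMP3 at 137 ± 9.75 RPKM, TIMP2 at 94.4 ± 13.6 RPKM and TIMP1 at 65.8 ± 11.4 RPKM. MMP14 reached 62.3 ± 6.04 RPKM, ADAM9 34.8 ± 10.5 RPKM and ADAM10 6.59 ± 1.56 RPKM. TIMP1 and MMP14 could not be separated by their spread.

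**Figure D1:**
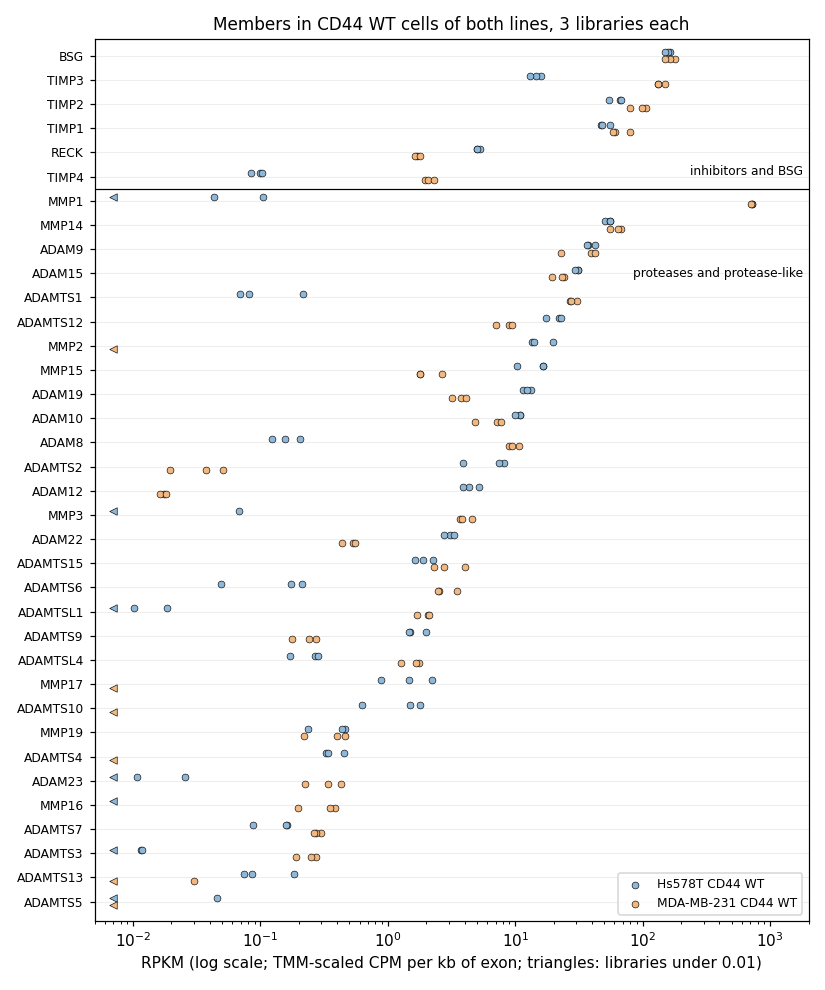
RPKM of the 36 tested members on a log scale in the 3 CD44 WT libraries of Hs578T and of MDA-MB-231, with proteases below the line and inhibitors and BSG above it; triangles mark libraries under 0.01. MMP1 at 716 RPKM in MDA-MB-231 lies above every other member, while MMP2, MMP17 and ADAMTS10 have no counts in that line.

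The CD44 WT cells of the lines were compared to describe the protease repertoire each knockout started from. At an adjusted p of at most 0.01 in edgeR's quasi-likelihood test, adjusted over the 15836 genes by the method of Benjamini and Hochberg, 28 of the 36 members differed, against 61.5% of all genes tested. Of these, 15 were higher in Hs578T (32.2% of all genes) and 13 lower (29.4%). The median size of the log2 difference was 3.04 over the 36 members and 0.72 over all genes tested. Each line is 1 cell line, so these are differences between these cells.

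The members furthest apart included secreted and membrane-bound proteins. MMP2, the gelatinase that MMP14 activates, gave 67.3, 69.4 and 97.3 CPM in the Hs578T CD44 WT libraries and 0 counts in all 6 MDA-MB-231 libraries. Against a floor of 3 counts over the MDA-MB-231 CD44 WT group, MMP2 was at least 906-fold higher in Hs578T (adjusted p = 2.06e-10). ADAMTS10, a protease of the microfibril, was at least 88.0-fold higher (adjusted p = 1.47e-06) and the membrane-type MMP17 at least 69.7-fold higher (adjusted p = 1.38e-06). ADAM12 stood at 44.0 ± 6.34 CPM in Hs578T and 0.171 ± 0.00802 CPM in MDA-MB-231 (log2 difference 7.94, SE 0.27, adjusted p = 1.37e-12). The procollagen N-proteinase ADAMTS2 stood at 56.8 ± 19.9 CPM and 0.314 ± 0.137 CPM (log2 difference 7.47, SE 0.37, adjusted p = 8.27e-11). The MDA-MB-231 CD44 WT values rest on 6 counts for ADAM12, 2 in each library, and on 11 counts for ADAMTS2. The SD of ADAM12 there reflects library size alone.

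In the other direction, MMP1 had 4 counts in the 3 Hs578T CD44 WT libraries together and 49674 in those of MDA-MB-231 (log2 difference -13.60, SE 0.46, adjusted p = 1.25e-12). MMP3, the stromelysin whose gene lies 37.6 kb from MMP1 on chromosome 11, had 2 counts and 290 counts, a ratio of 158 with an exact 95% counting interval from 43.4 to 1312 (adjusted p = 5.02e-08). MMP16, a membrane-type MMP, had 0 counts in Hs578T CD44 WT and 134 in MDA-MB-231 CD44 WT, at least 48.7-fold higher in MDA-MB-231 (adjusted p = 8.75e-08). ADAMTS1, which cleaves the proteoglycans versican and aggrecan, stood at 0.862 ± 0.575 CPM in Hs578T and 199.5 ± 13.6 CPM in MDA-MB-231 (log2 difference -7.88, SE 0.28, adjusted p = 2.55e-12). ADAMTSL1, an ADAMTS-like protein without a protease domain, stood at 0.158 ± 0.0875 CPM and 26.7 ± 2.95 CPM (log2 difference -7.33, SE 0.27, adjusted p = 3.66e-12). Its Hs578T CD44 WT value rests on 6 counts.

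Among the inhibitors, TIMP2, TIMP3 and TIMP4 were higher in MDA-MB-231 and RECK was higher in Hs578T. TIMP3, a matrix-bound inhibitor that also acts on ADAM and ADAMTS proteases, stood at 66.6 ± 6.65 CPM in Hs578T and 631 ± 44.9 CPM in MDA-MB-231 (log2 difference -3.24, SE 0.18, adjusted p = 2.66e-10). RECK stood at 30.8 ± 1.07 CPM and 10.3 ± 0.484 CPM (log2 difference 1.58, SE 0.11, adjusted p = 4.02e-09). ADAM10 was 1.61-fold higher in Hs578T (log2 difference 0.69, SE 0.13, adjusted p = 2.21e-04). TIMP1 (adjusted p = 0.0124), MMP14 (adjusted p = 0.151) and BSG (adjusted p = 0.444) did not pass the threshold.

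CD44 KO was then compared with CD44 WT within each line, to find which members differed between the sorted populations. Separately edited populations within a group are not described in the sources used here. Other differences between the populations therefore cannot be told apart from the loss of CD44. In Hs578T, 6 of the 36 tested members passed the threshold, while 7.51% of all genes did. The proteases MMP16, ADAMTS1 and ADAMTS5 and the inhibitor TIMP3 were higher in CD44 KO (4 members, against 3.64% of all genes), and the proteases MMP15 and ADAMTS10 were lower (2 members, against 3.86%). Of the 30 proteases 25 did not pass, and of the 5 inhibitors 4 did not. The median log2 fold change was 0.092 over the 30 tested proteases and 0.099 over the 29 of them with more than 3 counts in either Hs578T group, with MMP16 set at its lower bound in the latter. It was 0.17 over the 5 inhibitors and -0.0016 over all genes tested. The libraries of CD44 KO all lay above those of CD44 WT for 11 members, against 18.7% of all genes, and all below for 5 members, against 18.6%. With CD44 WT replicate 1 or CD44 KO replicate 2 left out, 2 members were called in place of 6.

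ADAMTS1 and ADAMTS5 rose in Hs578T CD44 KO and are both secreted proteoglycan-cleaving proteases, the latter known as a major aggrecanase of cartilage. They are neighbors on the minus strand of chromosome 21 of GRCh38, ADAMTS1 (ENSG00000154734.14) from 26835747 to 26845409 and ADAMTS5 (ENSG00000154736.5) from 26917912 to 26966513, with 72.5 kb between them. ADAMTS1 gave 0.485, 0.576 and 1.52 CPM in CD44 WT replicates 1 to 3 and 5.86, 10.5 and 8.27 CPM in CD44 KO. Each CD44 KO library was thus above every CD44 WT library, and the fitted change was 9.84-fold (log2 3.30, SE 0.34, adjusted p = 1.17e-05). ADAMTS5 gave 0.416, 0.0823 and 0.0846 CPM in CD44 WT and 5.54, 4.56 and 4.69 CPM in CD44 KO, again without overlap. Its fitted change was 22.8-fold (log2 4.51, SE 0.46, adjusted p = 9.60e-06), from 8 counts in CD44 WT to 198 in CD44 KO. ADAMTS5 exceeded 1 CPM in the Hs578T CD44 KO libraries alone, so it entered the test only through the group where it was high. Both genes kept an adjusted p of at most 2.10e-04 under every alternative setting and without any 1 of the 12 libraries. Of the other 3 members that cleave proteoglycans, ADAMTS4, ADAMTS9 and ADAMTS15, none passed in Hs578T in edgeR or DESeq2, and 1, ADAMTS15, had an unadjusted p under 0.05 in edgeR (log2 fold change -0.52, SE 0.24, adjusted p = 0.170).

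After its rise ADAMTS1 was still far below its level in MDA-MB-231 in the comparison of CPM, at 8.22 ± 2.34 CPM against 199.5 ± 13.6 CPM in MDA-MB-231 CD44 WT. In MDA-MB-231 the 3 CD44 WT libraries of ADAMTS1 gave 191, 215 and 193 CPM and the CD44 KO libraries 153, 117 and 104 CPM. All CD44 KO libraries lay below those of CD44 WT, but the difference did not pass in edgeR (log2 fold change -0.68, SE 0.17, adjusted p = 0.0198). It was called by DESeq2 (adjusted p = 0.00639) and without a count filter (adjusted p = 3.10e-07). ADAMTS5 had 1 count in MDA-MB-231 CD44 WT and 1 in CD44 KO, too few for a comparison.

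Of the 4 tested membrane-type MMPs, 1 was higher and 1 lower in Hs578T CD44 KO. MMP16 (MT3-MMP) had 0 counts in the 3 CD44 WT libraries and 5, 12 and 6 counts in the CD44 KO libraries, at least 7.28-fold higher against a floor of 3 counts over the CD44 WT group (adjusted p = 0.00195). Its level in CD44 KO, 0.551 ± 0.173 CPM, was below the 1 CPM used above to count a member as expressed. MMP15 (MT2-MMP, ENSG00000102996.4, chromosome 16 from 58025566 to 58046901, plus strand) gave 72.5, 72.5 and 45.4 CPM in CD44 WT and 29.9, 39.4 and 37.5 CPM in CD44 KO. Every CD44 KO library was below every CD44 WT library, with a 1.78-fold lower fitted level (log2 fold change -0.83, SE 0.18, adjusted p = 0.00498). MMP17 (MT4-MMP) did not pass (log2 fold change 0.57, SE 0.30, adjusted p = 0.245). MMP16 lost its call when CD44 KO replicate 2, or CD44 WT replicate 1, was left out (largest adjusted p = 0.0110), and MMP15 no longer passed without CD44 WT replicate 1 or 2 or any 1 of the 3 CD44 KO libraries (adjusted p up to 0.0337).

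ADAMTS10 (ENSG00000142303.13, chromosome 19 from 8580242 to 8610735, minus strand) gave 8.46, 10.2 and 3.55 CPM in Hs578T CD44 WT and 1.20, 1.29 and 1.79 CPM in CD44 KO. CD44 WT replicate 3 was the lowest of its group and still above all CD44 KO libraries, and the fitted level was 5.21-fold lower in CD44 KO (log2 fold change -2.38, SE 0.39, adjusted p = 0.00185). Its call was lost when CD44 WT replicate 1 or either of the CD44 KO replicates 1 and 2 was left out, with an adjusted p of 0.0151 at most. ADAMTS6, its close relative, stood at 1.24 ± 0.722 CPM and 1.13 ± 0.339 CPM (adjusted p = 0.841).

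In MDA-MB-231, 4 of the 36 tested members passed, while 4.62% of all genes did. MMP16, ADAM19 and ADAMTS6 were higher in CD44 KO (3 members, against 1.97% of all genes) and ADAMTSL4 was lower (1 member, against 2.65%). No inhibitor passed at this threshold in edgeR. The 5 inhibitors had unadjusted p-values under 0.05 for TIMP3 and RECK, and DESeq2 called none of them. The median log2 fold change was 0.10 over the 30 tested proteases and 0.19 over the 25 of them with more than 3 counts in either group, over the 5 inhibitors -0.0085 and over all genes tested -0.0096. The CD44 KO libraries all lay above those of CD44 WT for 9 members, against 11.8% of all genes, and all below for 5 members, against 13.7%. With either numbered CD44 WT library left out 2 members were called in place of 4, and with CD44 KO replicate 2 left out 1 was called.

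MMP16 was the only member that passed in both lines in the fit of all 12 libraries. With Hs578T fitted alone it was not tested, since no Hs578T library exceeded 1 CPM. It gave 2.40 CPM in MDA-MB-231 CD44 WT replicate 1, 4.70 CPM in replicate 3 and 4.28 CPM in the library without a replicate number. The CD44 KO libraries gave 12.8, 12.1 and 12.7 CPM, all above CD44 WT and close to one another, and the fitted change was 3.30-fold (log2 1.72, SE 0.23, adjusted p = 4.01e-04). The call held under every alternative setting and without any 1 library, with an adjusted p of at most 0.00424. Over the 100 tested genes nearest to MMP16 on chromosome 8, the median log2 fold change was 0.23 for MDA-MB-231 and -0.11 for Hs578T. Their part in the result was not tested. The difference between the changes of MMP16 in both lines did not pass (adjusted p = 0.0441).

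ADAM19 (ENSG00000135074.15, chromosome 5 from 157395534 to 157575775, minus strand), also called meltrin beta and known to shed neuregulins, gave 24.7, 29.1 and 31.5 CPM in MDA-MB-231 CD44 WT and 40.5, 46.7 and 45.1 CPM in CD44 KO. The groups did not overlap, and the fitted change was 1.55-fold (log2 0.63, SE 0.11, adjusted p = 0.00224). ADAMTS6 (ENSG00000049192.14, chromosome 5 from 65148736 to 65481920, minus strand) gave 21.4, 21.2 and 29.7 CPM in CD44 WT and 63.8, 60.9 and 36.0 CPM in CD44 KO. CD44 KO replicate 3 was the lowest of its group but above all CD44 WT libraries, with a fitted change of 2.23-fold (log2 1.16, SE 0.23, adjusted p = 0.00501). ADAMTSL4, an ADAMTS-like protein of the microfibril without a protease domain, gave 11.2, 10.8 and 8.20 CPM in CD44 WT and 4.57, 4.50 and 5.93 CPM in CD44 KO. All CD44 KO libraries were lower, by 2.03-fold in the fit (log2 fold change -1.02, SE 0.20, adjusted p = 0.0050). ADAM19 no longer passed without CD44 KO replicate 2 (adjusted p = 0.0165). ADAMTS6 and ADAMTSL4 no longer passed without CD44 WT replicate 1 or 3 or CD44 KO replicate 1 or 2 (adjusted p up to 0.0334 and 0.0368). Of the 4 called members, MMP16 was the only one still called when MDA-MB-231 was fitted alone.

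**Figure D2:**
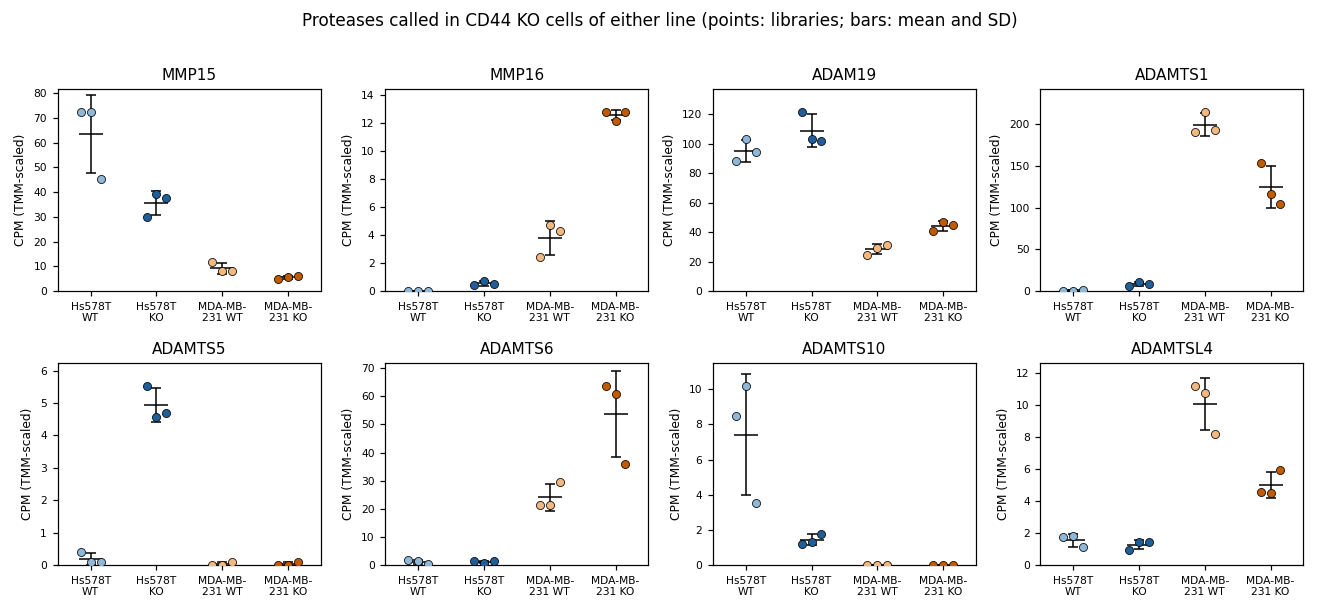
TMM-scaled CPM of the 8 proteases and ADAMTS-like proteins that passed in either line, with 1 point per library and bars for the mean and SD of 3 libraries; axes start at 0 and differ between panels. ADAMTS5 rises from at most 0.416 CPM in Hs578T CD44 WT to at least 4.56 CPM in Hs578T CD44 KO and is near 0 in MDA-MB-231, whereas MMP16 is higher in CD44 KO of both lines.

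To show the sequence in front of genes that changed, the bases before the RefSeq start (GRCh38.p14) are given for 5 of the called members. Each of the 5 has a single start in the RefSeq promoter table. The table held 28 of the 46 members, with 30 starts, and not ADAMTS1 or ADAMTS5. Each sequence below has 150 bases, written 5′ to 3′ on the strand of the gene and ending at the base before the start. Capitals mark a GC box, searched as GGGCGG or its reverse complement CCGCCC. The positions are chr22:32801555-32801704, plus strand, for TIMP3, chr16:58025604-58025753, plus strand, for MMP15, chr5:157575776-157575925, minus strand, for ADAM19, chr5:65481921-65482070, minus strand, for ADAMTS6, and chr1:150549258-150549407, plus strand, for ADAMTSL4. The MMP15 window lies inside the gene as counted, which starts at 58025566. The windows of TIMP3 and ADAMTSL4 run past their counted starts at 32801701 and 150549369.
TIMP3: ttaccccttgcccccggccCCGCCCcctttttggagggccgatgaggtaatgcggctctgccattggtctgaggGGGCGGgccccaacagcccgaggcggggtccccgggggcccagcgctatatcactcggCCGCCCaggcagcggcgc
MMP15: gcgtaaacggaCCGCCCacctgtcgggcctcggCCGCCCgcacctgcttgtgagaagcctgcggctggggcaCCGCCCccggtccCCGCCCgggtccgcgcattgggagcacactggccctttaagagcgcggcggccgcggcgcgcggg
ADAM19: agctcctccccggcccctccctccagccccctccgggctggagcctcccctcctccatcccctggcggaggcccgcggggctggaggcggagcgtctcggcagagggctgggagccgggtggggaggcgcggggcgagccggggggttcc
ADAMTS6: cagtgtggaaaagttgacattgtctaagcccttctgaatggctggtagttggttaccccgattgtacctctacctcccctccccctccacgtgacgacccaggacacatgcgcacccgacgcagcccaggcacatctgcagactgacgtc
ADAMTSL4: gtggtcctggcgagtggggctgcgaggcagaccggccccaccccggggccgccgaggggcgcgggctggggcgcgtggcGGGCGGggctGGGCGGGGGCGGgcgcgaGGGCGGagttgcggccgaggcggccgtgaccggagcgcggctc

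GC boxes were found 3 times in the window of TIMP3, which was higher in Hs578T CD44 KO, and 4 times in that of MMP15, which was lower there. Of the members called in MDA-MB-231, they were absent from the windows of ADAM19 and ADAMTS6, which were higher, and occurred 4 times in that of ADAMTSL4, which was lower. A GC box was present in 21 of the 30 windows of members and in 36.8% of the 35116 windows of the same length in the table. An AP-1 site, searched as TGAGTCA or TGACTCA, was found in none of the 5 windows, in 1 of the 30 windows of members (MMP7) and in 2.89% of all windows. A TATA box, searched as TATAAA or TTTATA, was found in none of the 5 and in 6.71% of all windows. It was found in 4 of the 30 windows of members, those of ADAMTS10, BSG, MMP7 and MMP10. ADAMTS10, called lower in Hs578T CD44 KO, was also among the members with a GC box. These are matches of letters and not measured binding sites. Neither MMP16, called in both lines, nor ADAMTS10 is among the 5 members whose sequence is given.

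The CD44 sheddases MMP14 and ADAM10 were read in every library. ADAM10 (ENSG00000137845.14, chromosome 15 from 58588807 to 58749978, minus strand) gave 177, 177 and 162 CPM in Hs578T CD44 WT and 184, 197 and 179 CPM in CD44 KO. The CD44 KO libraries were all slightly higher, but the log2 fold change of 0.12 (95% interval -0.16 to 0.40) did not pass (adjusted p = 0.608). In MDA-MB-231 ADAM10 gave 78.0, 116 and 126 CPM in CD44 WT and 105, 114 and 111 CPM in CD44 KO. These groups overlapped, with a log2 fold change of 0.05 (95% interval -0.23 to 0.33, adjusted p = 0.895). CD44 WT replicate 1 was the low library, and without it the log2 fold change was -0.13, again without passing. This library also had the largest deviation from its group over all genes (root mean square 0.216 on the log2 CPM scale, against 0.0977 to 0.169 in the other 11 libraries).

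MMP14 (MT1-MMP, ENSG00000157227.12, chromosome 14 from 22836557 to 22849027, plus strand) gave 227, 249 and 246 CPM in Hs578T CD44 WT and 257, 261 and 256 CPM in CD44 KO. The CD44 KO libraries were just above CD44 WT, and the log2 fold change of 0.10 (95% interval -0.17 to 0.37) did not pass (adjusted p = 0.675). In MDA-MB-231 MMP14 gave 249, 302 and 284 CPM in CD44 WT and 305, 415 and 476 CPM in CD44 KO. All CD44 KO libraries were above CD44 WT, CD44 KO replicate 1 only by a little. The log2 fold change of 0.52 (95% interval 0.25 to 0.79, SE 0.13) missed the threshold with an adjusted p of 0.0155. It was called by DESeq2 (adjusted p = 0.00207), without a count filter (adjusted p = 9.13e-06) and with runs of library numbers as a block (adjusted p = 0.00836). Without CD44 KO replicate 1 it was 0.68 and passed (adjusted p = 7.58e-04). The difference of the MMP14 changes between the lines was not called either (adjusted p = 0.155).

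ADAM17, which is not among the 46 genes but sheds many of the same substrates, passed in MDA-MB-231. It gave 77.0, 94.2 and 105 CPM in CD44 WT and 52.9, 68.1 and 64.6 CPM in CD44 KO. No CD44 KO library reached the lowest CD44 WT library (log2 fold change -0.57, SE 0.12, adjusted p = 0.00547). In Hs578T the log2 fold change was -0.19 (SE 0.11, adjusted p = 0.311). Over the 75 tested genes around ADAM17 near the end of chromosome 2, the median log2 fold change was -0.48 for MDA-MB-231 and -0.40 for Hs578T, and the fitted values of 71 and 68 of them were below 0. Their part in the result was not tested.

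The inhibitors were then read one by one. TIMP3 (ENSG00000100234.11, chromosome 22 from 32801701 to 32863043, plus strand) gave 73.4, 66.4 and 60.1 CPM in Hs578T CD44 WT and 88.6, 135 and 115 CPM in CD44 KO. All CD44 KO libraries were higher, with a 1.69-fold fitted change (log2 0.76, SE 0.17, adjusted p = 0.00603). In MDA-MB-231, where TIMP3 was more abundant, it gave 603, 683 and 607 CPM in CD44 WT and 384, 468 and 623 CPM in CD44 KO. The groups overlapped through CD44 KO replicate 3, and the log2 fold change of -0.36 (SE 0.16) did not pass (adjusted p = 0.187). The Hs578T call was lost without any 1 of the 3 CD44 WT libraries or without CD44 KO replicate 2 or 3 (adjusted p up to 0.0432).

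TIMP1 gave 73.1, 73.9 and 85.0 CPM in Hs578T CD44 WT and 91.1, 93.8 and 75.1 CPM in CD44 KO. The groups overlapped, with a log2 fold change of 0.17 (95% interval -0.11 to 0.44, adjusted p = 0.449). In MDA-MB-231 TIMP1 was at 101 ± 17.6 CPM and 101 ± 11.01 CPM, and its log2 fold change of -0.0085 (95% interval -0.28 to 0.26) was close to 0. TIMP2, which also helps MMP14 to activate MMP2, was at 353 ± 42.5 CPM and 371 ± 11.8 CPM in Hs578T (log2 fold change 0.07, 95% interval -0.18 to 0.32). In MDA-MB-231 it was at 532 ± 76.8 CPM and 459 ± 48.7 CPM (log2 fold change -0.21, 95% interval -0.46 to 0.03, adjusted p = 0.291).

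TIMP4 was at 6 counts in Hs578T CD44 WT and 25 in CD44 KO, and CD44 KO replicate 1 alone was above 1 CPM. It did not pass in Hs578T (log2 fold change 1.93, SE 0.81, adjusted p = 0.132) or in MDA-MB-231 (0.07, SE 0.38, adjusted p = 0.967). RECK gave 30.2, 32.0 and 30.1 CPM in Hs578T CD44 WT and 25.99, 26.2 and 29.0 CPM in CD44 KO, all lower, and 10.3, 9.81 and 10.8 CPM in MDA-MB-231 CD44 WT and 12.2, 13.1 and 13.8 CPM in CD44 KO, all higher. Neither change passed (log2 fold change -0.19, adjusted p = 0.257 in Hs578T, and 0.34, adjusted p = 0.0742 in MDA-MB-231), nor did their difference (adjusted p = 0.0381).

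BSG gave 620.0, 600.1 and 565 CPM in Hs578T CD44 WT and 629, 655 and 628 CPM in CD44 KO. The CD44 KO libraries were just above, with a log2 fold change of 0.10 (95% interval -0.08 to 0.27). In MDA-MB-231 BSG gave 685, 627 and 565 CPM in CD44 WT and 483, 499.5 and 516 CPM in CD44 KO. All CD44 KO libraries were lower there, and the log2 fold change of -0.33 (SE 0.08) missed the threshold (adjusted p = 0.0200). DESeq2 called it, and so did edgeR without the unnumbered CD44 WT library (log2 fold change -0.39, adjusted p = 0.00860).

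**Figure D3:**
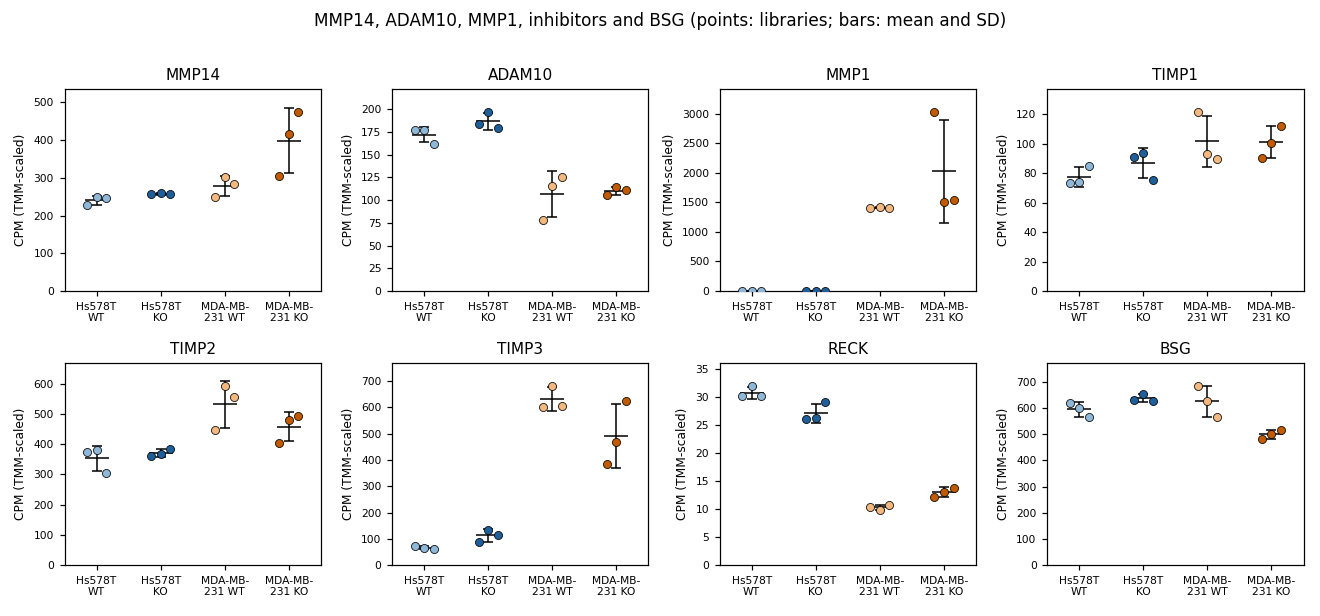
TMM-scaled CPM of MMP14, ADAM10, MMP1, TIMP1, TIMP2, TIMP3, RECK and BSG, with 1 point per library and bars for the mean and SD of 3 libraries; axes start at 0. ADAM10 varies little between CD44 WT and CD44 KO, TIMP3 is higher in all CD44 KO libraries of Hs578T, and the MMP1 mean of MDA-MB-231 CD44 KO rests on 1 library at 3033 CPM.

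MMP1, the most abundant protease of MDA-MB-231, gave 1410.2, 1421 and 1398 CPM in CD44 WT and 3033, 1504 and 1532 CPM in CD44 KO. All CD44 KO libraries were above CD44 WT, and replicate 1 was far above the other CD44 KO replicates. The log2 fold change was 0.52 (SE 0.21, adjusted p = 0.154), and without CD44 KO replicate 1 it was 0.11. MMP3 showed the same library highest in its own group, at 12.9 CPM against 5.46 and 5.93 CPM, with a log2 fold change of -0.04 (SE 0.29, adjusted p = 0.990). ADAM9 did not pass in Hs578T (log2 fold change -0.09, adjusted p = 0.791) or in MDA-MB-231 (0.02, adjusted p = 0.999). MMP2, expressed in Hs578T only, had a log2 fold change of 0.39 there (SE 0.15, adjusted p = 0.105).

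Summed over genes, the proteases reached 219.9 ± 10.3 RPKM in Hs578T CD44 WT and 224 ± 1.92 RPKM in CD44 KO, and the inhibitors 133 ± 4.54 RPKM and 151 ± 7.48 RPKM. In MDA-MB-231 the protease sum was 910.2 ± 21.3 RPKM in CD44 WT and 1244 ± 429 RPKM in CD44 KO, and without MMP1 it was 194 ± 19.4 RPKM and 217 ± 16.97 RPKM. The inhibitor sum there was 301 ± 14.5 RPKM and 258 ± 42.5 RPKM. These sums follow the few most abundant members and describe RNA, not enzyme activity.

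**Figure D4:**
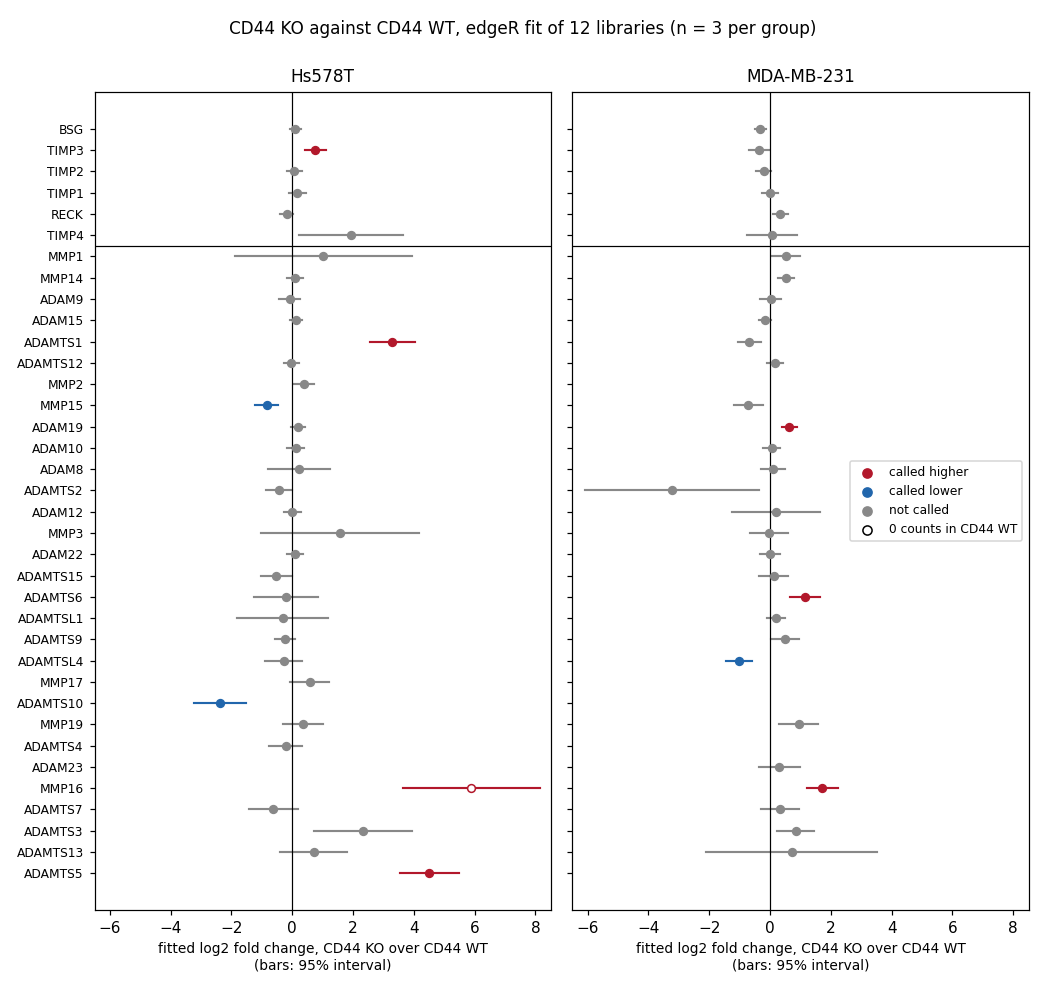
Fitted log2 ratio of CD44 KO to CD44 WT, with its 95% interval, for the tested members in Hs578T and MDA-MB-231, for members with more than 3 counts in either group of the line; inhibitors and BSG are above the line. Called members are colored, the open symbol marks MMP16 with 0 counts in Hs578T CD44 WT, whose fitted value is not a bound, and ADAMTS1 and ADAMTS5 at 3.30 and 4.51 lie far to the right in Hs578T.

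The change in CD44 KO was also tested for a difference between the lines, Hs578T minus MDA-MB-231. This passed for 2 members, ADAMTS1 and TIMP3, against 4.12% of all genes tested, and both differences were in the positive direction (2.33% of all genes). For ADAMTS1 the difference was 3.98 on the log2 scale (SE 0.38, adjusted p = 1.16e-05), with a change of 3.30 in Hs578T and -0.68 in MDA-MB-231. For TIMP3 it was 1.122 (SE 0.23, adjusted p = 0.00616), with changes of 0.76 and -0.36. ADAMTS1 kept this call without any 1 library. TIMP3 lost it without Hs578T CD44 WT replicate 1, 2 or 3, Hs578T CD44 KO replicate 2 or 3, MDA-MB-231 CD44 WT replicate 3, or MDA-MB-231 CD44 KO replicate 1 or 2. ADAMTS5 had 1 count in each MDA-MB-231 group and ADAMTS10 had 0 counts there, too few to compare the changes. For the remaining members called in 1 line the change was not shown to differ between the lines. The adjusted p of the difference was 0.0863 for ADAM19, 0.130 for ADAMTS6, 0.213 for ADAMTSL4 and 0.876 for MMP15. MMP15 was 1.64-fold lower in MDA-MB-231 CD44 KO without passing there (adjusted p = 0.0632). Of 23 alternatives, run in edgeR or DESeq2, 22 gave MMP15 in MDA-MB-231 an adjusted p above 0.01, and the smallest was 0.00164.

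Other thresholds were read against the share of all genes in the same way. At an adjusted p of at most 0.05, 6 members were called in Hs578T (14.2% of all genes), 7 in MDA-MB-231 (9.59%), 5 for the difference between the lines (10.5%) and 31 between the CD44 WT groups (71.1%). The members added in MDA-MB-231 were MMP14, ADAMTS1 and BSG. At 0.01 and a log2 size of 1 or more, 4 were called in Hs578T (4.7% of all genes), 3 in MDA-MB-231 (2.07%), 2 for the difference (2.96%) and 25 between the CD44 WT groups (36.7%).

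Genes that act on or with these proteases were read from a list of 63 genes, of which 38 were tested. The list was chosen with earlier results of these data known. The list held other family proteases, proprotein convertases that activate MMPs and ADAMs, partners of ADAM10 and ADAM17, gamma-secretase subunits, further inhibitors and partners of basigin. In Hs578T 5 of the 38 passed, 4 higher and 1 lower in CD44 KO, and in MDA-MB-231 4 passed, 2 higher and 2 lower, against 7.51% and 4.62% of all genes. None of the 4 convertases passed in either line in edgeR or DESeq2. Unadjusted p-values under 0.05 in edgeR were found in Hs578T for FURIN and PCSK5 and in MDA-MB-231 for FURIN.

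Both genes called in both lines from this list code for extracellular inhibitors. TFPI2, a Kunitz-type inhibitor of serine proteases such as plasmin, gave 0.347, 0.411 and 0.762 CPM in Hs578T CD44 WT and 2.97, 4.19 and 2.47 CPM in CD44 KO, without overlap (log2 fold change 2.70, SE 0.31, adjusted p = 3.14e-05). In MDA-MB-231 it gave 17.7, 20.4 and 22.1 CPM and 38.9, 39.5 and 45.2 CPM, again without overlap (1.03, SE 0.15, adjusted p = 4.73e-04). SPOCK1, a secreted proteoglycan of the testican family, fell in both lines. It gave 81.0, 49.5 and 25.2 CPM in Hs578T CD44 WT and 16.3, 10.0 and 9.72 CPM in CD44 KO (log2 fold change -2.12, SE 0.36, adjusted p = 9.19e-04). In MDA-MB-231 it gave 15.3, 32.7 and 33.4 CPM and 7.20, 7.89 and 9.18 CPM (-1.75, SE 0.38, adjusted p = 0.00774). The CD44 KO libraries were the lower ones in each case, and the CD44 WT libraries varied widely.

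The other called genes of this list passed in 1 line. In Hs578T the basigin partner SLC16A1, a lactate transporter also known as MCT1, was at 193 ± 4.35 CPM in CD44 WT and 270.4 ± 23.7 CPM in CD44 KO (log2 fold change 0.49, SE 0.11, adjusted p = 0.00681). EMB, which encodes embigin, another partner of such transporters, rose from 0.393 ± 0.0872 CPM to 8.32 ± 1.64 CPM (4.37, SE 0.30, adjusted p = 1.98e-07). ADAM21, a protease best known from testis, rose from 2.81 ± 0.630 CPM to 7.27 ± 1.35 CPM (1.38, SE 0.26, adjusted p = 0.00193). In MDA-MB-231 TSPAN14, a tetraspanin that carries ADAM10 through the secretory pathway, rose from 169.7 ± 4.999 CPM to 215 ± 7.74 CPM (0.34, SE 0.08, adjusted p = 0.00924), while ADAM10 itself did not pass. In MDA-MB-231 the calls of TSPAN14, SPOCK1 and ADAM17 were not stable, and 1 gene of the list, TFPI2, was called without Hs578T CD44 WT replicate 2, Hs578T CD44 KO replicate 3, MDA-MB-231 CD44 WT replicate 3, the unnumbered CD44 WT library or any 1 MDA-MB-231 CD44 KO library, and 2 without Hs578T CD44 KO replicate 2. In Hs578T 3 were called without CD44 WT replicate 1 or CD44 KO replicate 3, where ADAM21 and SLC16A1 were lost.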

How the data were processed

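The authors sequenced paired-end reads from stranded mRNA libraries, used HISAT2 2.1.0 for alignment to GRCh38, and counted fragments per gene of the GENCODE annotation with featureCounts 1.6.2. They deposited raw counts per gene, without normalization. Fragments on several genes or places, or on the opposite strand, were not counted.

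Symbols were matched by Ensembl ID. Genes above 1 CPM in at least 2 libraries and of at least 300 nt were fitted in R 4.3.3 with edgeR 4.0.16 (TMM, estimateDisp, legacy glmQLFit without robust estimation, glmQLFTest) on 4 group means and all 12 libraries. The study's length filter was read as removing genes under 300 nt. The threshold was an adjusted p (Benjamini-Hochberg, over all 15836 genes) of at most 0.01. SE is the log2 fold change divided by the root of F. Fits were tested on simulated data. Totals of 10257586 to 19725543 counts limit the precision of weakly expressed genes, and counting intervals and floors cover counting error only.

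The group of 1 MDA-MB-231 CD44 WT library came from its column name, which gives no single replicate number. Named were all called members, all inhibitors, BSG, MMP14, ADAM10, the 5 highest members per line, the 5 largest differences in each direction between CD44 WT groups, called genes of the further list, and ADAM17. MMP7, MMP3 and others beyond this rule were named after their values were seen. Results on some listed marker and partner genes are not reported here. Members, lists and alternatives were chosen with earlier results of these data known. The alternatives were DESeq2 1.42.0, RLE or library-size scaling, other count filters, each line alone, robust estimation, other thresholds, replicate blocks and each library left out.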

Additional observations from a re-analysis of the deposited data

Results flagged for a closer look

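In 5 genes, the CD44 KO change differed between Hs578T and MDA-MB-231 by the test of the difference itself, which set them apart. They came from 36 tested members and 38 tested genes of the further list, 3 of them from the latter, against 4.12% of all genes. Among the members these were ADAMTS1, with a difference of 3.98 on the log2 scale (Hs578T minus MDA-MB-231), and TIMP3, with 1.122. The call of TIMP3 was lost in several fits without 1 library, as listed above.

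Among the genes that act with these proteases, EMB differed by 4.32 (SE 0.36, adjusted p = 2.82e-06 in edgeR's quasi-likelihood test), and in Hs578T its counts summed to 330 in the knockout group and to 15 in its control group. TFPI2 differed by 1.66 (SE 0.36, adjusted p = 0.00841), although it was higher in CD44 KO of both lines. TSPAN33, a tetraspanin partner of ADAM10, differed by 2.31 (SE 0.41, adjusted p = 0.00232) without passing in either line. TSPAN33 stood at 0.946 ± 0.380 CPM in Hs578T CD44 WT and 2.20 ± 0.429 CPM in CD44 KO (adjusted p = 0.0183), and at 4.87 ± 1.09 CPM and 2.25 ± 0.193 CPM in MDA-MB-231 (adjusted p = 0.0134). No group had 4 samples or more, so Dixon's test for outlying libraries was not run.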

How the results depend on the processing

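ADAMTS1 and ADAMTS5 in Hs578T and MMP16 in MDA-MB-231 were called under every alternative. In MDA-MB-231 the 4 called members became 7 with DESeq2, 8 without a count filter, 1 with each line fitted alone and 7 at an adjusted p of at most 0.05. At that threshold the difference between the lines was called for 5 members, and 8 genes of the further list were called in each line. In MDA-MB-231 that list gave 2 calls with each line fitted alone and 2 when a log2 size of 1 or more was also required. Leaving out 1 library gave 2 to 6 called members in Hs578T, 1 to 5 in MDA-MB-231, 1 to 2 for the difference, 27 to 29 between the CD44 WT groups, and 3 to 7 and 1 to 4 for the further list in Hs578T and MDA-MB-231. For alternatives other than the thresholds, including left-out libraries and blocks, the share of all genes called was not computed. Those counts therefore cannot be set against all genes. The cause was not tested.

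Of 779 values of single members under an alternative, 718 kept direction and side of the threshold, 31 lost a call, 13 gained one and 17 turned sign, all of them uncalled. TIMP1 in MDA-MB-231 was 0.0060 with DESeq2, 0.0058 with RLE factors, 0.011 with library size only, 0.014 without a count filter, 0.0090 with the line alone, 0.0035 with the block by library numbers, and -0.091 to 0.14 without 1 library. Without 1 library ADAMTS6 in Hs578T ran from -0.59 to 0.19 and TIMP2 from -0.026 to 0.13, and in MDA-MB-231 ADAM9 ran from -0.21 to 0.18, ADAM10 from -0.13 to 0.18 and TIMP4 from -0.33 to 0.38.

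The replicate numbers were not taken to pair the libraries. Deviations of same-numbered libraries correlated at -0.14 to 0.044 in Hs578T and 0.0047 to 0.22 in MDA-MB-231, and not every library correlated best with its own number. For runs of library numbers the correlations were 0.039, 0.18 and 0.20 in Hs578T and 0.0047, 0.22 and 0.22 in MDA-MB-231, so that 4 of 6 pairs exceeded 0.1. With the replicate number as a block, without the unnumbered library, 6 members were called in Hs578T, 3 in MDA-MB-231, 2 for the difference and 27 between CD44 WT groups, and 1 gene of the further list in MDA-MB-231. With runs of library numbers as a block these member counts were 6, 5, 2 and 29, with MMP14 gained in MDA-MB-231.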
